A study of Homo sapiens with 288 samples.

Results

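The annexins are a family of proteins that bind phospholipid membranes when calcium rises. Each has a conserved core of repeats that holds calcium and lipid, and an N-terminal tail that differs between members and docks partner proteins. They are known for roles in membrane traffic, membrane repair, inflammation and coagulation, and the placental trophoblast and the vessel wall are both tissues in which they have been studied. The 8 members described here are ANXA1, ANXA2, ANXA3, ANXA4, ANXA5, ANXA6, ANXA7 and ANXA11. They were found by symbol among the 17492 genes of the count tables, where 12 symbols are those of annexins. These 8 were chosen by measured values of the same libraries, namely their level, detection and spread in EC and TB cells, so their levels in the cell types are given as a description with no test.

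The cells came from H1, an established human embryonic stem cell line. EC are endothelial cells made from H1 in E8 medium with BMP4 at 5 ng/ml and Activin A at 25 ng/ml for 2 days, followed by VEGF and WNT for 3 days. TB are trophoblast-like cells made in E7 medium, which is E8 without FGF2, with BMP4 at 50 ng/ml and SB431542. Single cells were captured on the Fluidigm C1 system, and the stored full-length cDNA of 45 EC and 51 TB cells was made into libraries in 3 experiments. Each cell gave the same amount of cDNA to its library. In EQ equal volumes were pooled, EQ-Vary pooled variable volumes, and for EQ-75% the whole of EQ was repeated at about 75% of the sequencing depth. The same cell number stands for the same cDNA in each experiment, so no experiment repeats the cell. EQ-75% repeats the library. Whether EQ-Vary had new libraries or pooled those of EQ again is not stated.

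A cell passed when its log10 total count was at least 5.4 and its 50 most abundant genes held at most 31% of its counts. The cells that passed were 38 EC and 48 TB in EQ. EQ-Vary kept 38 EC and 46 TB, and EQ-75% kept 39 EC and 50 TB. The total counts of passing cells in EQ ran from 365570 to 3966801, with medians of 2025145 in EC and 1968545 in TB. In EQ-75% the medians were 1499284 in EC and 1765246 in TB, so the counts of passing cells fell less in TB than in EC. Counts were scaled within a cell to a total of 1000000, in units written as CPM. No separate cultures are named, so each cell type in each experiment is 1 sample, every SD below is a spread between cells, and no p-value is given.

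The labels were checked against marker genes. The summed level of 12 endothelial markers in EQ was 571 to 9617 CPM in EC cells and 3.43 to 96.3 CPM in TB cells. Of these markers, CLDN5 averaged 4.84 CPM and ROBO4 1.19 CPM in EC. The summed level of 12 trophoblast markers was 2766 to 18593 CPM in TB cells and 114 to 3966 CPM in EC cells. KRT8, KRT18, KRT19 and VTCN1 made up most of this sum in TB, while KRT7 averaged 25.3 CPM, TP63 5.58 CPM and CGA, a hormone subunit of the syncytiotrophoblast, 2.93 CPM. GATA2, on the same list, was higher in EC, with a mean of 65.7 CPM there and 38.2 CPM in TB. The summed level of 9 stromal markers was 860 to 11123 CPM in TB (median 4407) and 21.9 to 3693 CPM in EC (median 818). Of these, the matrix gene LUM averaged 3041 CPM in TB and 10.2 CPM in EC, COL1A2 averaged 294 CPM in TB and 840 CPM in EC, and POSTN was at 0 in both. In EC cell 15 the trophoblast markers exceeded the endothelial markers in each of the 3 experiments, and no TB cell showed the converse.

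Of the 8 members, 4 were at least 2-fold higher in TB than in EC by mean CPM in EQ (ANXA1, ANXA2, ANXA3 and ANXA4), 1 was at least 2-fold higher in EC (ANXA6) and 3 were within 2-fold (ANXA5, ANXA7 and ANXA11). Of 12752 genes that averaged 1 CPM or more in a cell type, 27.2% were at least 2-fold higher in TB and 19.7% in EC. In EQ-Vary the members counted 4 in TB and 0 in EC, where the shares of all genes were 27.3% and 20.1%. In EQ-75% they were again 4 and 0, beside 28.1% and 18.9% of all genes. The median log2 ratio of TB over EC was 0.94 over the members and 0.07 over all genes in EQ. Because the members were chosen on these levels, nothing is read from their share. The 8 members summed to a median of 2304 CPM in EC cells (lowest 509, highest 6021) and 7621 CPM in TB cells (lowest 1006, highest 13731), so the ranges overlapped.

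**Figure D1:**
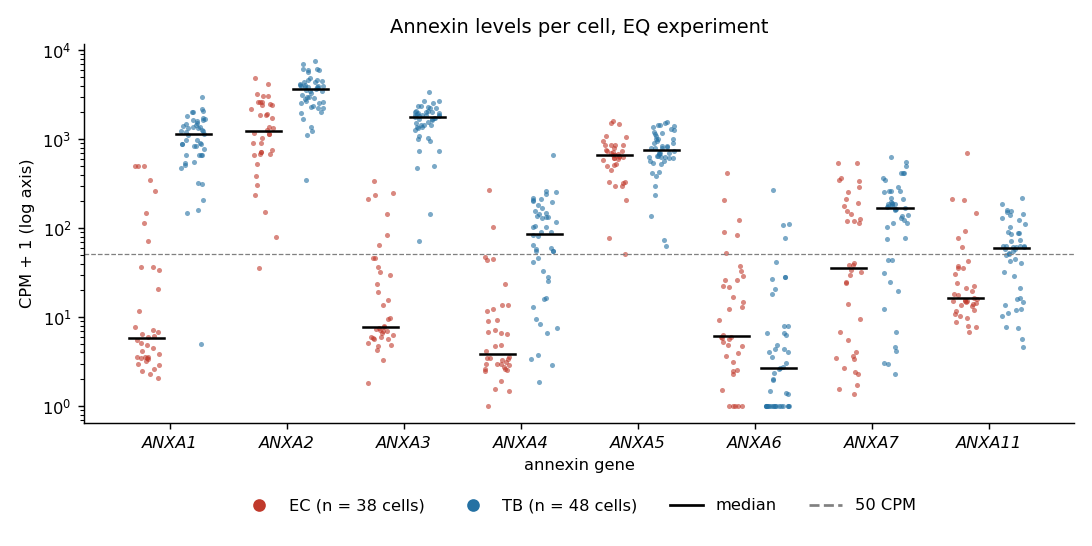
Level of each annexin in every passing cell of EQ, as CPM + 1 on a log axis, for 38 EC cells (red) and 48 TB cells (blue), with the median as a black line and 50 CPM as a dashed line. ANXA1 and ANXA3 have medians of 4.78 and 6.75 CPM in EC and of 1132 and 1761 CPM in TB, whereas the EC and TB clouds of ANXA5 lie at the same height.

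ANXA1 (ENSG00000135046) is a mediator of the resolution of inflammation that is induced by glucocorticoids and acts through formyl peptide receptors. The gene lies on chromosome 9 from 73151865 to 73170393 on the plus strand of GRCh38, and its canonical transcript has 13 exons. In EC cells of EQ the lowest ANXA1 level was 1.07 CPM, the median 4.78 and the highest 502. In TB cells the lowest was 3.95 CPM, the median 1132 and the highest 2984. The groups overlapped, but 41 of the 48 TB cells lay above the highest EC cell, and the TB cell was the higher in 97.4% of all pairs of an EC and a TB cell. The mean was 69.6 CPM ± 146 (SD, n = 38 cells) in EC and 1121 CPM ± 619 (SD, n = 48 cells) in TB, a ratio of 16.1. It was 16.6 in EQ-Vary and 15.7 in EQ-75%, and with any 1 cell left out of EQ it stayed between 15.5 and 19.4.

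The EC mean of ANXA1 rested on few cells. At or above 50 CPM there were 8 of 38 EC cells (21.1%, exact 95% binomial interval 9.55 to 37.3%) and 47 of 48 TB cells (97.9%, 88.9 to 99.9%), where the intervals cover counting error only. The remaining 30 EC cells were under 50 CPM, and the third quartile of EC was 34.9 CPM. The 50 CPM limit was chosen after the data were seen.

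TB cell 17 stood apart from the other TB cells, with ANXA1 at 3.95 CPM in EQ, 4.92 CPM in EQ-Vary and 6.99 CPM in EQ-75%. In EQ the same cell held ANXA2 at 3510 CPM, ANXA3 at 2543 CPM and ANXA5 at 701 CPM, all inside the TB range. Its trophoblast markers summed to 7210 CPM and its endothelial markers to 63.1 CPM. Its low value was therefore found for ANXA1 in each experiment, with the trophoblast markers above the TB median of 5939 CPM. In EQ-75% a second cell, TB 48, which did not pass in EQ, held ANXA1 at 7.36 CPM.

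ANXA3 (ENSG00000138772), an annexin described as an inhibitor of phospholipase A2, had the highest ratio among the members. It lies on chromosome 4 from 78551747 to 78610451 on the plus strand. In EC the lowest level was 0.834 CPM, the median 6.75 and the highest 336, and in TB the lowest was 69.9 CPM, the median 1761 and the highest 3375. Of the 48 TB cells, 46 lay above the highest EC cell, and 32 of the 38 EC cells lay below the lowest TB cell. The mean was 44.3 CPM ± 80.3 (SD, n = 38 cells) in EC and 1667 CPM ± 665 (SD, n = 48 cells) in TB, a ratio of 37.6 against 38.1 for EQ-Vary and 33.2 for EQ-75%. At or above 50 CPM there were 7 of 38 EC cells (18.4%, 7.74 to 34.3%) and all 48 TB cells.

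The windows before the starts of ANXA1 and ANXA3 are shown because these genes had the widest gap between the cell types. They are the reference bases of RefSeq on GRCh38.p14, plus strand, 5′ to 3′, ending at the last base before any exon in GENCODE v44. Capitals mark motif matches on either strand, and no match overlapped another. The letters searched were TATAAA for the TATA element, GGGCGG for the GC element and CCAAT for the element of that name. For transcription factors they were TGANTCA for AP-1, GCCNNNGGC for AP-2 and GGAATG for the TEAD factors.
ANXA1, chr9:73151615-73151864: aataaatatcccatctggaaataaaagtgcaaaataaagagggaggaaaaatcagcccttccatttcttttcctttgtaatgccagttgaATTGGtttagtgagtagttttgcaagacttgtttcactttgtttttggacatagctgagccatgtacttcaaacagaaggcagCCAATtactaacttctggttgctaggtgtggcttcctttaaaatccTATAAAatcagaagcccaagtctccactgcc
ANXA3, chr4:78551520-78551746: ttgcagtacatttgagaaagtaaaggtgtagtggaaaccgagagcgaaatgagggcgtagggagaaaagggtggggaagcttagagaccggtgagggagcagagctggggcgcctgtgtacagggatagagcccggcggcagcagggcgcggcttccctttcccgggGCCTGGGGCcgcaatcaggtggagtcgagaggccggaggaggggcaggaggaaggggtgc

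The ANXA1 window of 250 bases was 38.4% G or C and held TATAAA 31 bases before its end and CCAAT once on each strand. The ANXA3 window of 227 bases was 62.6% G or C and held a single match, to GCCNNNGGC, starting 60 bases before its end. Over 35116 promoter windows of 250 bases the median share of G or C was 58% (quartiles 46.4% and 68%). TATAAA was in 10.7% of these windows, CCAAT in 32.01%, GCCNNNGGC in 19.8%, GGGCGG in 42.6%, TGANTCA in 6.57% and GGAATG in 11.9%. The windows of ANXA1 and ANXA3 thus held no motif of this list in common. A match describes letters and not a site in use.

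**Figure D2:**
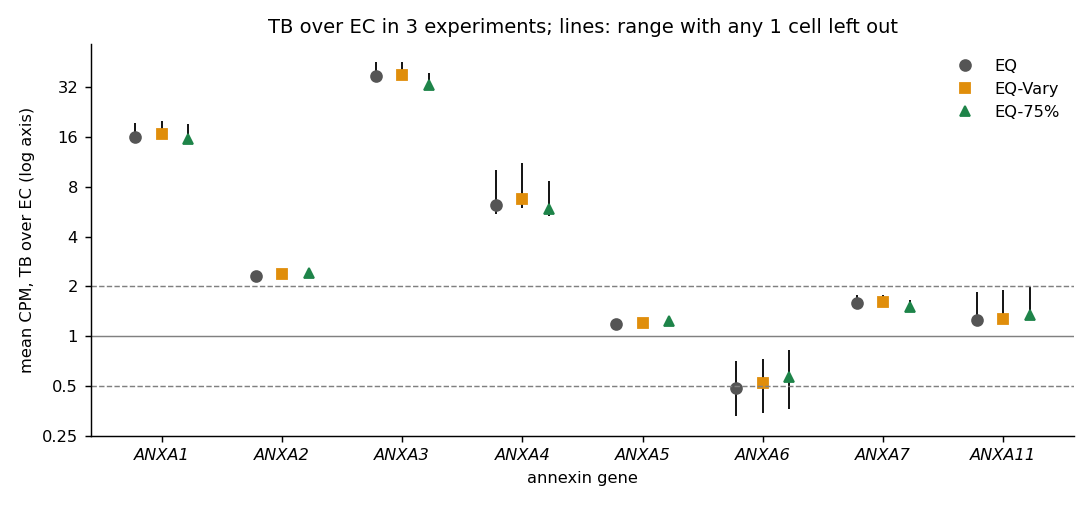
Ratio of the mean CPM of TB cells over that of EC cells on a log axis, for each annexin in EQ (circles), EQ-Vary (squares) and EQ-75% (triangles), with black lines for the range of the ratio when any 1 cell is left out and dashed lines at 2-fold. ANXA1, ANXA2, ANXA3 and ANXA4 lie above the upper dashed line in each experiment, and the range of ANXA6 crosses the lower line in each.

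ANXA2 (ENSG00000182718) pairs with S100A10 in a complex at the cell surface that binds plasminogen and its activator. It lies on chromosome 15 from 60347134 to 60402883 on the minus strand. In EC the lowest level was 34.2 CPM, the median 1224 and the highest 4880. In TB the lowest was 346 CPM, the median 3628 and the highest 7548, so the ranges overlapped over most of their length and 7 TB cells lay above every EC cell. The mean was 1566 CPM ± 1166 (SD, n = 38 cells) in EC and 3615 CPM ± 1542 (SD, n = 48 cells) in TB, a ratio of 2.31, with 2.25 to 2.45 when any 1 cell was left out. ANXA2 was at or above 50 CPM in 37 of 38 EC and all 48 TB cells, a level that ANXA1 and ANXA3 reached in a minority of EC cells. Reads of its processed pseudogenes could be counted here. Of the 51-base windows of ANXA2P2 on chromosome 9, 89.5% matched an ANXA2 transcript within 2 mismatches, and the share was 36.8% for ANXA2P1 and 18.998% for ANXA2P3.

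ANXA4 (ENSG00000196975), an annexin of epithelial membranes, lies on chromosome 2 from 69644425 to 69827112 on the plus strand. It ran from 0 to 266 CPM in EC (median 2.87) and from 0.864 to 658 CPM in TB (median 85.6), and only 1 TB cell lay above every EC cell. The mean was 17.2 CPM ± 45.8 (SD, n = 38 cells) in EC and 107 CPM ± 112 (SD, n = 48 cells) in TB, a ratio of 6.20. EC cell 35 decided part of this value, since the ratio was 10.2 without it. At or above 50 CPM there were 2 of 38 EC cells (5.26%, 0.644 to 17.7%) and 32 of 48 TB cells (66.7%, 51.6 to 79.6%).

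ANXA5 (ENSG00000164111) covers exposed phosphatidylserine and is an anticoagulant protein of the placenta. It lies on chromosome 4 from 121667946 to 121696995 on the minus strand. EC cells ran from 49.9 to 1589 CPM (median 656) and TB cells from 62.6 to 1579 CPM (median 760). The ranges coincided, and the TB cell was the higher in 60.0% of pairs. The mean was 679 CPM ± 350 (SD, n = 38 cells) in EC and 808 CPM ± 381 (SD, n = 48 cells) in TB, a ratio of 1.19, so the difference of the means was smaller than the SD between cells of either type.

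ANXA7 (ENSG00000138279), first described for fusing secretory granules, lies on chromosome 10 from 73375101 to 73414076 on the minus strand. It ran from 0.363 to 541 CPM in EC (median 35.05) and from 1.30 to 631 CPM in TB (median 166). The ratio of means was 1.59 and that of medians 4.73. At or above 50 CPM there were 16 of 38 EC cells (42.1%, 26.3 to 59.2%) and 36 of 48 TB cells (75%, 60.4 to 86.4%). ANXA11 (ENSG00000122359), which tethers RNA granules to lysosomes and binds PDCD6, lies on chromosome 10 from 80150889 to 80205572 on the minus strand. It ran from 5.87 to 696 CPM in EC (median 15.3) and from 3.60 to 220 CPM in TB (median 58.8). Its ratio of means was 1.25, or 1.86 without EC cell 16, while that of medians was 3.85. The TB cell was the higher in 67.1% of pairs for ANXA7 and 68.5% for ANXA11.

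ANXA6 (ENSG00000197043), which has a longer core of repeats than the other members and takes part in endocytosis and cholesterol transport, was the member with the higher mean in EC. It lies on chromosome 5 from 151100706 to 151157815 on the minus strand, and its canonical transcript has 26 exons. EC cells ran from 0 to 418 CPM (median 5.14) and TB cells from 0 to 266 CPM (median 1.66). The mean was 33.5 CPM ± 76.2 (SD, n = 38 cells) in EC and 16.3 CPM ± 44.5 (SD, n = 48 cells) in TB. EC over TB was 2.06 in EQ, against 1.93 in EQ-Vary and 1.76 for EQ-75%, and in EQ it was 1.42 without EC cell 27 and 3.06 without TB cell 49. Whether ANXA6 lay past 2-fold thus rested on single cells, and with summed counts in place of mean CPM it did not. At or above 50 CPM there were 6 of 38 EC and 4 of 48 TB cells (15.8%, 6.02 to 31.3%, and 8.33%, 2.32 to 19.98%), intervals that overlapped.

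**Figure D3:**
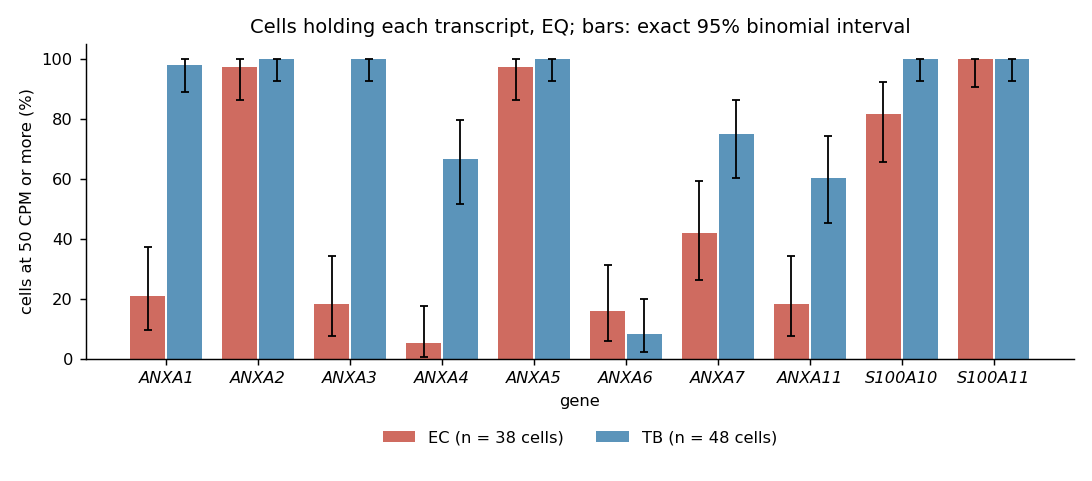
Percent of passing cells of EQ at 50 CPM or more, for the 8 annexins, S100A10 and S100A11, in EC (red, 38 cells) and TB (blue, 48 cells), with exact 95% binomial intervals for counting error. ANXA1, ANXA3 and ANXA4 stand at 21.1%, 18.4% and 5.26% in EC against 97.9%, 100% and 66.7% in TB.

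Detection by a single count gave another picture from these shares. In EQ, 6 members were detected with a rounded count of at least 1 in all 38 EC cells (ANXA4 and ANXA6 were the exceptions, in 37 and 33 cells) and 7 members in all 48 TB cells (ANXA6 was found in 31). After every cell was thinned to 250000 counts, ANXA1 was found in 20 of 38 EC cells, ANXA3 in 34, ANXA4 in 26, ANXA6 in 22 and ANXA7 in 30, while ANXA2, ANXA5 and ANXA11 remained in all 38. Of the TB cells, all 48 still held ANXA1, ANXA2, ANXA3 and ANXA5, and 47 held ANXA11, 46 ANXA4, 43 ANXA7 and 18 ANXA6. In EC, the medians of ANXA1 and ANXA3 were 0.427% and 0.405% of their TB means. Those of KRT19, HAND1, VTCN1, COL3A1, LUM and DCN, which were taken because their TB mean was at least 200 CPM and at least 50-fold the EC mean, were 0.214 to 0.283%, and LUM was counted in all 38 EC cells. That rule favours low EC medians, so these values set no floor for ANXA1 and ANXA3, which did not meet it. Some other markers of the trophoblast list were further above 0, with KRT8 at 3.04%, GATA3 at 31.7% and GATA2 at 90.0%. KRT7 and TP63 were at 0. In the converse direction 7 endothelial markers met the same rule, with TB medians of 0 to 0.999% of their EC means. Those of TEK, ESAM and ERG were 0. PECAM1 stood highest, with a TB median of 13.2 CPM, and it was counted in all 48 TB cells, as was KDR (0.148%). The source of the low ANXA1 and ANXA3 counts in EC was not tested.

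Levels of different genes were compared per kilobase of the canonical transcript. In EC the mean level per kilobase was 1008 CPM for ANXA2, 415 for ANXA5, 49.7 for ANXA1, 46.6 for ANXA7, 30.95 for ANXA3, 11.6 for ANXA6, 7.88 for ANXA11 and 6.50 for ANXA4. Along this order, the gap from ANXA5 to ANXA1 was the one that exceeded its SD between cells, at 5.23 ± 2.90 (log2, SD, n = 38 cells). Medians gave another order in EC, with ANXA1 at 3.41 CPM per kilobase, under ANXA7 at 14.3 and ANXA3 at 4.71. In TB the order by mean was ANXA2 at 2326 CPM per kilobase, ANXA3 at 1164, ANXA1 at 800, ANXA5 at 493, ANXA7 at 74.2, ANXA4 at 40.3, ANXA11 at 9.83 and ANXA6 at 5.64. There the gaps from ANXA2 to ANXA3 (1.05 ± 0.82) and from ANXA5 to ANXA7 (3.32 ± 1.69, log2, SD, n = 48 cells) exceeded the SD. ANXA2 and ANXA5 thus led in EC, and in TB ANXA3 and ANXA1 stood with them. Reads were counted over all transcripts of a gene, and with the union of exons as length ANXA5 came before ANXA2 in EC, and ANXA3 before ANXA2 in TB.

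The number of annexins that a cell held also differed. At or above 50 CPM, an EC cell of EQ held 2 to 6 of the 8 members (median 3) and a TB cell 4 to 8 (median 6). ANXA2 made up 2.66 to 91.8% of a cell's summed annexin level in EC (median 54.7%) and 25.5 to 75.0% in TB (median 46.8%). The range of this share was thus wider in EC than in TB.

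The spread between cells was set against the trend of all genes by mean level. In EC the CV of ANXA1 was 2.09, at percentile 82.2 of the 11490 genes after the trend was removed, and that of ANXA2 was 0.74, at percentile 81.8. ANXA5 lay on the low side, with a CV of 0.52 at percentile 31.5. In TB the CV of ANXA1 was 0.55 (percentile 72.5), of ANXA2 0.43 (50.0) and of ANXA3 0.40 (38.4), among 11900 genes. ANXA11 was the least spread for its level in TB (CV 0.79, percentile 12.6) and ANXA6 the most (CV 2.73, percentile 84.3). These positions were alike in EQ-75%, at 82.9 and 85.2 for ANXA1 and ANXA2 in EC and 10.5 and 88.3 for ANXA11 and ANXA6 in TB. They describe the same values that chose the members.

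Repeat libraries of the same cDNA show how much of the spread between cells was kept from library to library. Over the 47 TB cells that passed in EQ and in EQ-75%, the SD between cells of ANXA1 was 1.46 on the log2(CPM + 1) scale and the SD of the difference between the 2 libraries of a cell was 0.14. Over the 37 EC cells these were 2.56 and 0.86. Library differences made up 0.49% of the variance of ANXA1 in TB, and for the members in all the share ran from there to 8.28% for ANXA4 in EC. Pearson correlations between the libraries ran from 0.92 (ANXA4 in EC) to 0.996 (ANXA1 in TB), where the points share their cDNA. Between EQ and EQ-Vary, ANXA4 in EC had a share of 12.8% by the same measure and a Pearson correlation of 0.88. Between EQ and EQ-75% the Spearman correlation of ANXA1 in EC was lower, at 0.70. The EC medians of this gene were 4.78 CPM in EQ and 3.89 CPM in EQ-75%.

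The EC cells that held ANXA1 or ANXA3 at 50 CPM or more were found again in the repeat. Over the 37 EC cells, ANXA1 was at or above 50 CPM in 8 in EQ and 8 in EQ-75%, and 8 cells were in both counts. For ANXA3 the numbers were 7, 8 and 7. Among the 38 EC cells of EQ, 4 held both genes at this level, 4 held ANXA1 without ANXA3, 3 held ANXA3 without ANXA1 and 27 held neither. EC cell 15, in which the trophoblast markers exceeded the endothelial ones, was of the third kind, with ANXA3 at 212 CPM and ANXA1 at 1.49 CPM. Its pluripotency markers summed to 2646 CPM, the highest of the EC cells, whose median was 426.

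**Figure D4:**
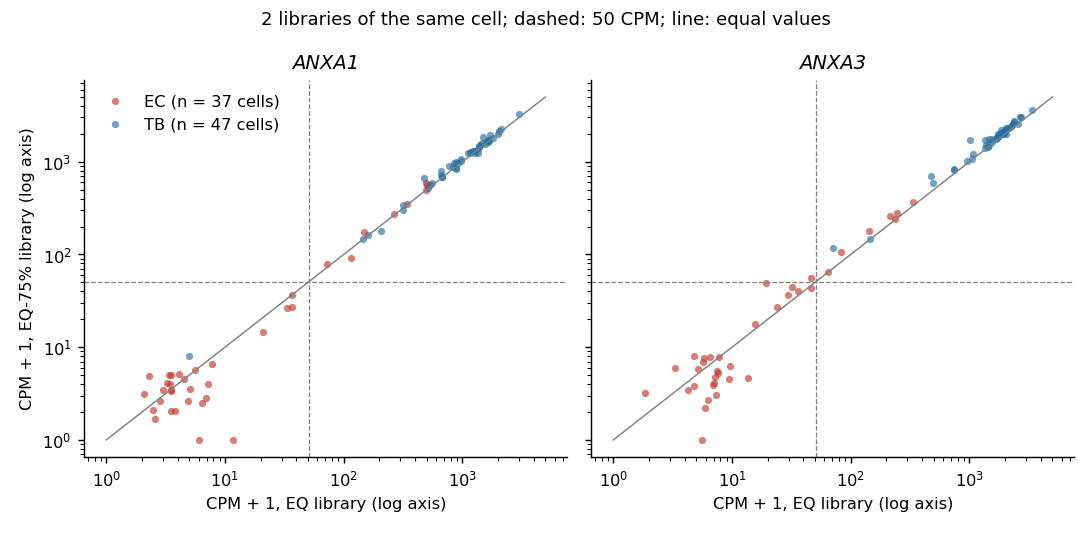
CPM + 1 of ANXA1 (left) and ANXA3 (right) in the EQ library (x axis) and the EQ-75% library (y axis) of the same cell, both on log axes, for 37 EC cells (red) and 47 TB cells (blue), with 50 CPM dashed and equal values as a line. The 8 EC cells above 50 CPM of ANXA1 in one library lie above it in the other, and the scatter widens below 10 CPM.

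Shifts between the experiments were small beside the spread between cells. From EQ to EQ-75%, ANXA3 in TB shifted by 0.16 ± 0.16 on the log2(CPM + 1) scale (SD, n = 47 cells) and was higher in 45 of 47 cells, and it was the member whose mean shift exceeded its SD (0.164 against 0.156). The median shift of all genes in TB was -0.07. ANXA1 in TB shifted by 0.09 ± 0.14 and ANXA5 by 0.05 ± 0.16. The partner gene S100A10 shifted by -0.20 ± 0.13 (lower in 45 of 47 TB cells) and S100A11 by -0.18 ± 0.15 (lower in 43). Their percentiles among all genes were 16.5 and 20.8, and that of ANXA3 in TB was 96.2. ANXA6 and ANXA11 in TB also shifted below 0, by -0.29 ± 0.77 and -0.17 ± 0.34. In EC ANXA3 shifted by -0.15 ± 0.78 and S100A10 by -0.20 ± 0.24. From EQ to EQ-Vary no member exceeded its SD in either type, with mean shifts between -0.23 (ANXA3 in EC) and 0.01 (ANXA5 in EC).

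Within TB cells, ANXA1, ANXA2 and S100A10 tended to be high in the same cells. Across the 48 TB cells of EQ the Spearman correlation was 0.62 between ANXA1 and ANXA2, 0.61 between ANXA1 and S100A10 and 0.57 between ANXA2 and S100A10. In EQ-75% these were 0.68, 0.60 and 0.60, on cells that share the cDNA of EQ. The values of these pairs by Pearson correlation of log2(CPM + 1) in EQ were 0.38, 0.49 and 0.59, and the pairs of members that reached 0.5 by it were others, ANXA3 with ANXA5 (0.70), ANXA2 with ANXA5 (0.61), ANXA2 with ANXA3 (0.60) and ANXA5 with ANXA7 (0.56). The cells of a type share 1 culture and run as far as the labels go, so these values are descriptions. By Spearman correlation in EQ, ANXA2 and ANXA5 had 0.48 and ANXA3 and ANXA5 0.37. Of the 28 pairs of members the median was 0.12 (lowest -0.29, for ANXA4 with ANXA6), and 1 pair reached 0.5.

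In EC the pattern was another. ANXA2 and S100A10 had 0.51 across 38 cells, while ANXA1 had 0.24 with ANXA2 and 0.11 with S100A10. The highest pair of members was ANXA1 with ANXA3, at 0.52, and EQ-Vary gave 0.56 and EQ-75% gave 0.29 for it. The median of the 28 pairs was -0.01. The ANXA2 and S100A10 pair, which forms the complex named above, was over 0.5 in both types in EQ. For this pair EQ-75% gave 0.56 in EC and 0.60 in TB, and EQ-Vary gave 0.48 in EC and 0.61 in TB. Lower values in both types were those of ANXA5 with ANXA7, at 0.34 in EC and 0.33 in TB, and of ANXA6 with ANXA11, at 0.31 and 0.34.

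**Figure D5:**
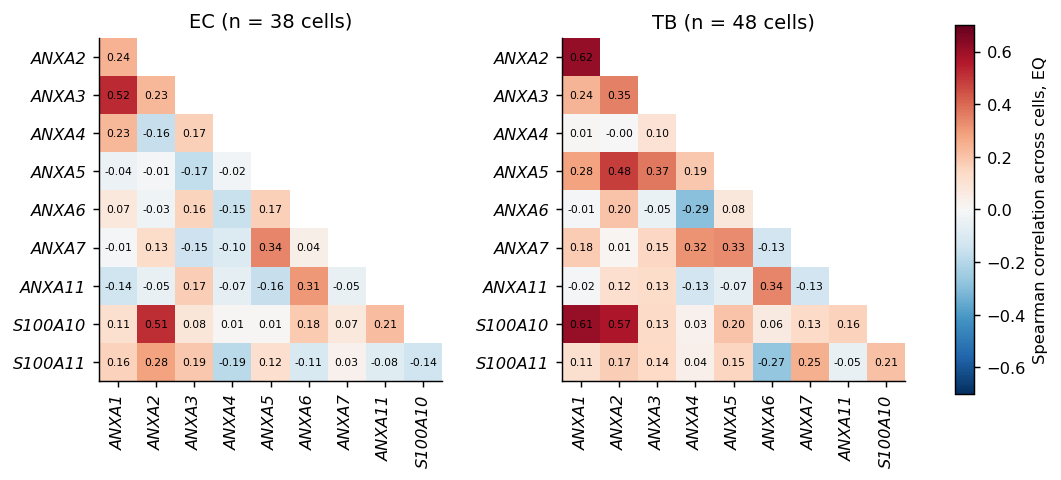
Spearman correlations across the passing cells of EQ between the 8 annexins, S100A10 and S100A11, in EC (left, 38 cells) and TB (right, 48 cells), with red for positive and blue for negative values. The cells of the map at 0.5 or more are ANXA1 with ANXA3 and ANXA2 with S100A10 in EC, and ANXA1 with ANXA2 and each of these with S100A10 in TB.

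The gene nearest to ANXA1 across TB cells was LUM, a matrix proteoglycan, with a Spearman correlation of 0.62 among 8616 genes that averaged 10 CPM or more, followed by ANXA2 and S100A10. ANXA1 had 0.54 with the summed stromal list, 0.30 with the trophoblast list and 0.12 with the total count of the cell. LUM is itself on the stromal list, with a mean of 3041 CPM in TB beside a median sum of 4407 CPM. The value of 0.54 is therefore not separate from that of LUM. ANXA2 in TB had 0.41 with the trophoblast list, 0.37 with the stromal list and 0.22 with the total count. The genes nearest to ANXA2 were NME1-NME2 (0.63), ANXA1 and YBX1 (0.61). ANXA3 had BZW1, a translation regulator, as its nearest gene (0.66), with TIMM9 at 0.55 and BOLA3 at 0.53. For the other members in TB the nearest genes were FYN (0.52), TOB1 and PEG3 for ANXA4, MARS (0.58), SALL4 and PEA15 for ANXA5, POLE4 (0.61), IGBP1 and MGST3 for ANXA7, and GRN (0.58), TACC1 and DPF2 for ANXA11. ANXA6 was detected in under 90% of the cells of either type and was given no neighbours.

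In EC the nearest genes were ANKDD1A (0.58), MBNL1 and FST for ANXA1 and MAP4K5 (0.65), HOPX and DEGS1 for ANXA2. They were TSPO (0.60), XYLT2 and AARS2 for ANXA3, RGR (0.68), IGSF6 and SLC30A4 for ANXA4 and CDK10 (0.58), C19orf43 and SELK for ANXA5. ANXA7 had COA4 (0.68), PLTP and GTF2A1, and ANXA11 had PPA2 (0.65), ZBTB39 and GEMIN8. None of these genes was among the 3 nearest to the same member in TB. Lists of 3 genes out of 8235 in EC and 8616 in TB would seldom share a gene, so nothing is read from this. Each nearest gene was picked as the highest of all these genes, so its value in EQ is high by choice. In the EQ-75% libraries of the same cells the EC values ran from 0.22 (AARS2 with ANXA3) to 0.66 (COA4 with ANXA7). CDK10, the nearest gene to ANXA5, was at 0.30 there, IGSF6 and SLC30A4 with ANXA4 at 0.26 and 0.30, and ZBTB39 with ANXA11 at 0.31. In TB LUM with ANXA1 was again at 0.62, and the lowest value was 0.40, for FYN with ANXA4. Against the marker lists in EC, the value furthest from 0 in EQ was -0.34, for ANXA2 with the trophoblast list. In EQ-75% it was 0.36, for ANXA7 with the same list.

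S100A10 and S100A11, small S100 proteins that dock to the tails of ANXA2 and ANXA1, were measured beside the annexins. S100A10 had a mean of 224 CPM ± 192 (SD, n = 38 cells) in EC and 902 CPM ± 465 (SD, n = 48 cells) in TB, a ratio of 4.03, and 25 TB cells lay above every EC cell. S100A11 had 719 CPM ± 311 in EC and 1317 CPM ± 463 in TB, a ratio of 1.83. Of 14 genes listed as annexin partners 13 were in the tables and 11 could be compared, of which 5 were at least 2-fold higher in TB, 3 in EC and 3 in neither, beside 27.2% and 19.7% of all genes. The other TB-higher partners were AHNAK, a large scaffold at the membrane that binds the ANXA2 complex (130 against 926 CPM, 7.12-fold), PDCD6 (50.6 against 150, 2.96-fold), SRI (206 against 511, 2.48-fold) and PLA2G4A, a phospholipase A2 (0.171 against 31.2 CPM). The EC-higher ones were KDR, the VEGF receptor, which is also on the endothelial marker list (1600 against 4.27 CPM), FPR1, at 3.02 against 1.48 CPM, and PLAT, which is listed at 0 in every TB cell and reached 50 CPM in a single EC cell. In EQ-Vary and EQ-75% 2 partners were EC-higher. The median log2 ratio of the list was 0.87, beside 0.07 over all genes.

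Of the 5 other annexins listed, 4 were in the tables and 2 could be compared. ANXA8L1 averaged 27.6 CPM ± 44.8 in TB (11 of 48 cells at or above 50 CPM) and 0.068 CPM in EC, and ANXA9 averaged 28.7 CPM ± 59.7 in TB (11 of 48 cells) and 0.051 CPM in EC. Reads of ANXA8L1 could belong to its near-identical copy ANXA8, the listed annexin that was not among the genes counted. The other two, ANXA10 and ANXA13, were under 1 CPM in both types. Both compared genes had the higher mean in TB, beside 27.2% of all genes at least 2-fold higher there, and reached 50 CPM in a minority of its cells.

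Membrane repair genes act with annexins when a membrane is torn. Of 27 genes listed 23 were in the tables and 22 could be compared, of which 4 were at least 2-fold higher in TB, 7 in EC and 11 in neither, where 27.2% and 19.7% of all genes were higher in TB and in EC. The ferlins, calcium sensors of membrane repair, were opposed. DYSF averaged 142 CPM ± 159 (SD, n = 38 cells) in EC and 5.02 CPM ± 22.3 (SD, n = 48 cells) in TB, a ratio of 28.3 toward EC, and MYOF averaged 6.81 CPM ± 20.4 in EC and 219 CPM ± 153 in TB, a ratio of 32.2 toward TB. The genes of caveolae and their necks were on the EC side, with CAV1 at 25.1 against 1.198 CPM (20.9-fold), EHD2 at 102 against 15.9 CPM (6.43-fold) and CAVIN2 at 4.004 against 0.830 CPM. CAVIN2 reached 50 CPM in a single EC cell. SMPD1, the acid sphingomyelinase, was on the TB side at 1.61 against 13.1 CPM (8.11-fold). The median log2 ratio of this list was -0.32 beside 0.07 over all genes.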

How the data were processed

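Expected counts of 17492 genes in 288 single-cell samples were analysed. Per the methods and the labels, the authors trimmed reads to 51 bp, aligned them by Bowtie 1.2.3 to the protein-coding genes of GRCh38, allowing 2 mismatches, and deposited the expected counts of RSEM 1.2.31 without normalization. No doublet caller was run. Per the paper, cells whose images showed doublets or that looked dead had been removed in the initial, unequalized (unEQ) experiment. The Ensembl release is not given in the sources used here. Of the sample columns, 0 were unused, and the unEQ libraries were not analysed here.

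Counts were rounded and scaled to CPM in each cell. With 1 sample per cell type, a gene was called past 2-fold in mean CPM when 1 type averaged at least 1 CPM, with no p-value. Binomial intervals were exact (95%). Differences between experiments were taken within cells, because the same cDNA bears the same number. Deviations of same-numbered cells correlated at 0.879 or more, and every cell correlated best with its own number. Thinning and the contrasts were tested on simulated data.

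The members and lists were chosen with earlier results of these data known. Named were all members, S100A10, S100A11, up to 6 genes per list furthest past 2-fold in EQ, and the 3 nearest genes by Spearman correlation (mean of at least 10 CPM) of each member detected in at least 90% of the cells of a type. SRI, FPR1, single markers and single cells were named after their values were seen. Motifs were chosen after the data were seen. Alternatives were other scalings, filters, summaries, cells and limits. Gene positions were those of GENCODE v44 and promoter bases those of RefSeq. TMM factors came from edgeR 4.0.16 in R 4.3.3. Other steps ran in Python 3.11.15 (scipy 1.17.1, pandas 2.3.3, numpy 2.4.6), with figures by matplotlib 3.10.9.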

Additional observations from a re-analysis of the deposited data

How the results depend on the processing

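The members at least 2-fold higher in TB counted 4 in each experiment under other scalings, cells, rounding, filters and summed counts, 5, 5 and 6 in EQ, EQ-Vary and EQ-75% by mean log2(CPM + 1), and 3 at a 3-fold limit, where ANXA2 was lost. Without EC cell 15 they were again 4, an alternative added after the data were seen. With TMM factors 3293 of 12751 genes were at least 2-fold higher in TB in EQ. The shares of all genes higher in TB by mean log2(CPM + 1) or at 3-fold are not given here. Nothing is read from the members' counts under those settings. The members higher in EC in EQ were 0 with summed counts and 0 at a 3-fold limit, and 1 in EQ-Vary and in EQ-75% by mean log2(CPM + 1). That measure also placed 1222 of 12752, 1215 of 12754 and 1140 of 12704 genes higher in EC in EQ, EQ-Vary and EQ-75%. With 1 cell left out, the log2 ratio of TB over EC of ANXA6 in EQ ran from -1.61 to -0.50. TMM factors moved the median gene by -0.11 (log2) in EQ and EQ-Vary and by -0.09 in EQ-75%, and no member changed direction. By the union of exons, 6 members changed rank by level per kilobase in EC and 4 in TB.

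Members detected in every passing cell were 3 in place of 6 in EC and 4 in place of 7 in TB in EQ, both with at least 5 counts and after thinning, and were 4 in TB over all 96 cells. After thinning they were 2 in EC in EQ-Vary and 4 in TB in EQ-75%, and in TB in EQ-Vary 3 in one random draw and 4 in another, and over all 96 cells 2 in EC in EQ-Vary. With no replicate block, that is with unpaired means over all passing cells, 0 members shifted from EQ to EQ-75% in TB by more than an SD, against 1 when cells were paired, and the shift of ANXA1 in TB was -0.06. By Pearson correlation 0 pairs of members reached 0.5 in EC and 4 in TB, and in EQ-75% 0 in EC. With 1 sample per cell type, the intervals cover counting error only, and counts of 0 in single cells of ANXA4 and ANXA6 do not show that the transcript was absent.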
